A study of Mus musculus with 12 samples.

Results

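Sprr1a, Sprr2b, Gjb2 and Klk6 are 4 genes of the injured epidermis that were followed in mouse skin after a burn. They were selected by name, as the probe sets whose annotation names exactly 1 of them, which gave 1 probe set for each gene and 4 of the 5599 genes that any probe set of the table names alone. RNA from murine skin was hybridised to Affymetrix oligonucleotide arrays, 1 array per sample, in 4 groups of 3 arrays. Thermal injury preceded excision of the skin by 0 hours, by 2 hours, by 3 days or by 14 days, and no other treatment is named. The labels give no strain, sex, age, genotype or burn method, leave unsaid if a burn was made at 0 hours, and do not tell separate animals from repeat samples of 1 animal. P-values here therefore refer to the spread among samples of a group, part or all of which may be technical.

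Cells at the edge of a skin wound leave their usual programme of differentiation, divide and migrate, and later stratify again to rebuild the barrier. Small proline-rich proteins such as Sprr1a and Sprr2b are precursors that transglutaminases cross-link into the cornified envelope, the protein shell of the outermost keratinocytes, and they are known to be raised in stressed and wounded epidermis. Gjb2 encodes a connexin, a subunit of the gap junction channels that pass small molecules between neighbouring cells, and it is scarce in resting interfollicular epidermis of the mouse body. Klk6 is a secreted serine protease of the tissue kallikrein family.

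The Sprr genes lie side by side in the epidermal differentiation complex. In the RefSeq annotation of build GRCm38.p6, 17 Sprr genes lie on chromosome 3 between bases 92215835 and 92500493, with Sprr2b at 92316705 to 92318085 and Sprr1a at 92483954 to 92485881. Gjb2 lies on chromosome 14 at 57098602 to 57104702, and Klk6 on chromosome 7 at 43824438 to 43832027. The probe sets were 160909_at for Sprr1a, 99701_f_at for Sprr2b, 98423_at for Gjb2 and 92353_at for Klk6. The ending _f_at is the array maker's mark for a probe set whose probes can match several members of a sequence family, so the Sprr2b signal may include transcripts of near-identical Sprr2 genes.

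The 250 bases before each annotated start are shown because all 4 genes were high at 3 days and 14 days, while Sprr1a alone passed the test at 2 hours. They are RefSeq sequence of GRCm38.p6, written 5′ to 3′ on the strand of the gene, with exact motif matches in capitals. The 2 Klk6 windows precede 2 starts that lie within the annotated gene, which begins at base 43824438, so both windows hold bases of the gene.
Sprr1a, chr3:92485882-92486131, minus strand: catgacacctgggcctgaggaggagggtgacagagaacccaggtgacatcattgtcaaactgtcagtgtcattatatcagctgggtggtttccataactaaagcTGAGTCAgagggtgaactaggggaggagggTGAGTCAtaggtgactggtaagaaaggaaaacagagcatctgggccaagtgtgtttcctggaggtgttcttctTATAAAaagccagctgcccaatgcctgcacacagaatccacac
Sprr2b, chr3:92316455-92316704, plus strand: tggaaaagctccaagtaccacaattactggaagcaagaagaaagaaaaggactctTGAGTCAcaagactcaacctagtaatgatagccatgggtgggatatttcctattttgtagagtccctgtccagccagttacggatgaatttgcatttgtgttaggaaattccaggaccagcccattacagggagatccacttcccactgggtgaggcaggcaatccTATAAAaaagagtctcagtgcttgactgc
Gjb2, chr14:57104703-57104952, minus strand: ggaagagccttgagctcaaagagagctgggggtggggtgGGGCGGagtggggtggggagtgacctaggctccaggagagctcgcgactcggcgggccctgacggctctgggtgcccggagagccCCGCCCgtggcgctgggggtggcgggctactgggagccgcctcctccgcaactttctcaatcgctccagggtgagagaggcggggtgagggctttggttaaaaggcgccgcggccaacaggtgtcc
Klk6 first start, chr7:43824294-43824543, plus strand: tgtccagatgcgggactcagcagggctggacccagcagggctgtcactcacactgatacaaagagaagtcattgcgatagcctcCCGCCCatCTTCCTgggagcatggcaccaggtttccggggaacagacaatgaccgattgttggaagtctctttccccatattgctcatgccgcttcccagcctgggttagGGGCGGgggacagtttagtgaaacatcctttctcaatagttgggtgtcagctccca
Klk6 other start, chr7:43825200-43825449, plus strand: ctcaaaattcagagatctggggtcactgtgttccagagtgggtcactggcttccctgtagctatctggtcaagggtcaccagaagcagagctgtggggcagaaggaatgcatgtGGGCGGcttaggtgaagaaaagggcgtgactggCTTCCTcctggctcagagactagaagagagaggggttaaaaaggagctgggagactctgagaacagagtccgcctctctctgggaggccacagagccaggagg
The motifs searched on both strands were AP-1 (TGANTCA), ETS (CGGAAG or AGGAAG), C/EBP (TTGCNNAA), a TATA box (TATAAA) and KLF/Sp (GGGCGG), each over the window of 300 bases that adds 50 bases after the start. TGAGTCA occurs at positions -146 and -116 of Sprr1a, counted from the start, and once in Sprr2b at -195, and both genes have TATAAA, at -43 in Sprr1a and -29 in Sprr2b. Gjb2 and the windows of Klk6 have no AP-1 or TATA match of these letters. They carry GGGCGG or its reverse complement CCGCCC, 2 times in Gjb2, at -211 and -126, and Klk6 also has CTTCCT, the reverse complement of AGGAAG, at -158 and -103 of its 2 windows. An AP-1 match was present in 7.81% of all 32851 promoter windows and in 9 of the 14 windows of Sprr genes. The TATA letters were in 13.62% of all windows and in 10 of the 14, and GGGCGG was in 35.66% of all windows and in 1 of the 14. ETS letters were in 46.47% of all windows and in 7 of the 14, and C/EBP letters, absent from the windows of the 4 genes, were in 10.8% and in 1 of the 14. No motif overlapped another in these windows, and a match is a description of the letters only.

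Array medians ran from 448.4 to 496.4 intensity units, and arrays of the same time correlated at 0.875 to 0.960 (Spearman), against 0.802 to 0.940 between times. The log2 ratio of the 3′ to the 5′ Gapdh control probe sets, a measure of RNA integrity, averaged 1.99 ± 0.29 (SD, n = 3) on the 0 hours arrays, 1.54 ± 0.46 on those of 2 hours, 0.52 ± 0.50 on those of 3 days and 0.21 ± 0.08 on those of 14 days. It was lower at the later times, when the 4 genes were higher, and its part in their changes was not tested. Keratinocyte transcripts were bright on every array, with Krt10 at 15008.5 to 29999.2 and Krt1 at 2782.7 to 28164.2, while Krt2, another marker of differentiated keratinocytes, was dim at 191.1 to 516.5. The array of 0 hours replicate 1 had the highest summed signal of 32 of 38 listed skeletal muscle markers, 661216.8, against 425757 and 393836.2 on the other 0 hours arrays, and the lowest sum of 11 of 17 basal keratinocyte markers, 29542.6, against 44663.4 and 30665.5. Where leaving this array out changed a call of a named gene, this is said. The calls of Slpi, Cstb, S100a8 and S100a9 were not examined with arrays left out. Where it changed a call of the 4 genes or moved their fold by over 1.5 times, both values are given. The muscle sum was 136164.2 to 301937.2 at 3 days and 188814.1 to 272257.7 at 14 days, against 393836.2 to 661216.8 at 0 hours.

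Sprr1a was above background on every array and had risen by 2 hours, the 1 gene of the 4 to pass the test that early. Its deposited intensity was 1059.8, 2355.3 and 2548.5 at 0 hours, 6085.7, 7148.8 and 5480.7 at 2 hours, 13027.3, 8762.8 and 12379.8 at 3 days, and 14550.9, 7463.6 and 12966.6 at 14 days. Each array at 2 hours was above each array at 0 hours, and all 3 arrays of each later time were above all arrays at 2 hours. The rise at 2 hours was 3.35-fold against 0 hours (log2 change 1.74 ± 0.32, limma adjusted p = 0.00543), where ± is the standard error of a limma fit across all 12 arrays. At 3 days it was 6.06-fold above 0 hours (2.60 ± 0.32, limma adjusted p = 0.000257) and at 14 days 6.05-fold above it (2.60 ± 0.32, limma adjusted p = 0.000295). Sprr1a thus ranked 23rd by rise among 3477 tested genes at 2 hours, 20th at 3 days and 10th at 14 days. The order of the means was 3 days, 14 days, 2 hours and 0 hours. The neighbours 14 days and 2 hours were separated by 0.85 ± 0.32 without passing the test (limma adjusted p = 0.0972), and the interval of 14 days minus 3 days ran from -0.69 to 0.69 (95%). Sprr1a at 3 days was 0.86 ± 0.32 above 2 hours and did not pass either (limma adjusted p = 0.114).

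**Figure D1:**
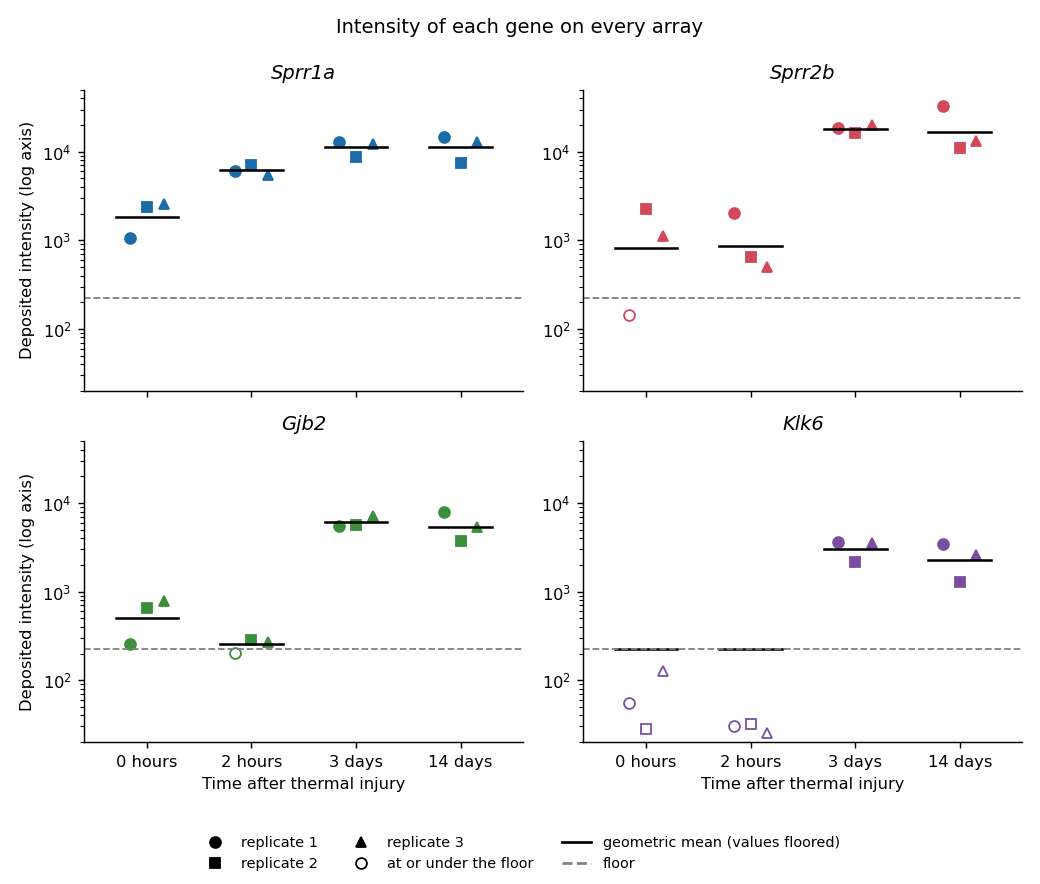
Deposited intensity (log axis, the same in each panel) of Sprr1a, Sprr2b, Gjb2 and Klk6 on all 12 arrays by time after injury. Circles, squares and triangles are replicates 1, 2 and 3, hollow points lie at or under the background floor (dashed, 225.375), and bars are geometric means of the floored values. Sprr1a is the 1 gene already higher at 2 hours, and all 6 Klk6 arrays at 0 hours and 2 hours lie under the floor.

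Sprr2b was much higher at 3 days and 14 days and varied widely between replicates before that. Its intensity was 142.3, 2244.1 and 1111.5 at 0 hours, 2019.4, 647.3 and 504.7 at 2 hours, 18397.2, 16392.5 and 20135.0 at 3 days, and 33270.6, 10973.7 and 13063.7 at 14 days. The 0 hours arrays were far apart, and the lowest of them, replicate 1, lay under the floor of 225.375 that marks background here. No 0 hours or 2 hours array overlapped the range of the later times. By geometric means, with that array set to the floor, Sprr2b was 22.1-fold higher at 3 days than at 0 hours (log2 change 4.47 ± 0.68, limma adjusted p = 0.000674) and 20.4-fold higher at 14 days (4.35 ± 0.68, limma adjusted p = 0.00174). Without 0 hours replicate 1 the changes were 3.53 at 3 days and 3.41 at 14 days, and without 0 hours replicate 2 they were 5.19 and 5.07. The change at 2 hours against 0 hours was 0.08 ± 0.68, with a 95% interval of -1.37 to 1.52 (limma adjusted p = 0.956). It was -0.86 without 0 hours replicate 1 and 0.80 without 0 hours replicate 2, and passed in neither case. Against 2 hours Sprr2b was 21.0-fold higher at 3 days (4.39 ± 0.68) and 19.3-fold higher at 14 days (4.27 ± 0.68), or 4.996 and 4.88 on the log2 scale without 2 hours replicate 1. The means ran 3 days, 14 days, 2 hours and 0 hours, and neither the first pair nor the last pair of neighbours differed by the test.

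Gjb2 was dim at 0 hours and 2 hours and bright at the later times. Its intensity was 258.2, 657.0 and 775.9 at 0 hours, 204.3, 284.6 and 270.8 at 2 hours, 5561.2, 5639.3 and 7050.7 at 3 days, and 7881.0, 3760.6 and 5335.1 at 14 days. At 2 hours all 3 arrays lay near the floor, 1 of them under it, and they overlapped the lowest 0 hours array. Gjb2 was 11.9-fold higher at 3 days than at 0 hours (3.57 ± 0.35, limma adjusted p = 3.3e-05) and 10.6-fold higher at 14 days (3.41 ± 0.35, limma adjusted p = 7.49e-05). The change at 2 hours against 0 hours was -0.97 ± 0.35, which did not pass (limma adjusted p = 0.118), but without 0 hours replicate 1 it was -1.46 and did (limma adjusted p = 0.00756). Against 2 hours, with its 1 array under the floor set to it, the rise was 23.3-fold at 3 days (limma adjusted p = 2.24e-06) and 20.9-fold at 14 days (limma adjusted p = 4.31e-06). The means ran 3 days, 14 days, 0 hours and 2 hours, and only 14 days and 0 hours differed among neighbours.

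Klk6 was not above background at 0 hours or 2 hours and was above the floor on every later array. Its intensity was 54.7, 28.1 and 127.8 at 0 hours, 30, 32.4 and 25.5 at 2 hours, 3638.1, 2165.4 and 3508.0 at 3 days, and 3434.7, 1298.8 and 2573.6 at 14 days. All 6 early arrays were under the floor, so values there have no order and no fold between 2 hours and 0 hours is given. The rise against 0 hours was at least 13.4-fold at 3 days (3.75 ± 0.29, limma adjusted p = 4.81e-06) and at least 10.01-fold at 14 days (3.32 ± 0.29, limma adjusted p = 1.48e-05). The size of these bounds is set by the floor: with the floor at the 10th percentile of all values they were 4.68 and 4.25 on the log2 scale, and at the 40th percentile 3.07 and 2.64. Flooring also gave the 6 early arrays 1 shared value, against an SD of 0.42 at 3 days and 0.72 at 14 days on the log2 scale. The standard errors and p-values of Klk6 rest partly on that lack of spread and should not be ranked against those of the other genes. In RNA of a mixed tissue such as skin, fewer cells that express a gene and less of its RNA per cell cannot be told apart.

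Across the 4 genes, 1 rose at 2 hours against 0 hours (Sprr1a), where 4% of the 3477 tested genes did so, and none fell, where 1.67% did (limma), though Gjb2 was lower at an unadjusted p of 0.0141. The 2 groups did not overlap for Sprr1a, as for 13.6% of tested genes that were higher. All 4 rose at 3 days, against 8.89% of tested genes, and all 4 rose at 14 days, against 6.90% of tested genes. Groups did not overlap for all 4 genes at 3 days and at 14 days, against 16.6% and 17.4% of tested genes with no overlap in that direction. Against 2 hours 3 of the 4 rose at 3 days (6.10% of tested genes) and the same 3, all but Sprr1a, at 14 days (6.84%). All 4 were without overlap in both, against 16.7% at 3 days and 19.7% at 14 days. The genes were chosen with earlier results of these data known, so the counts describe them and are no test. Klk6 entered the tested set only through its 6 later arrays and Gjb2 through 2 arrays at 0 hours and its 6 later ones, so Klk6 had to differ between times to be tested at all. Between 14 days and 3 days none of the 4 passed (limma), at an unadjusted p of 0.172 to 0.996, with intervals of -1.56 to 1.33 for Sprr2b, -0.91 to 0.59 for Gjb2 and -1.05 to 0.21 for Klk6. In that comparison 3.39% of tested genes were called.

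**Figure D2:**
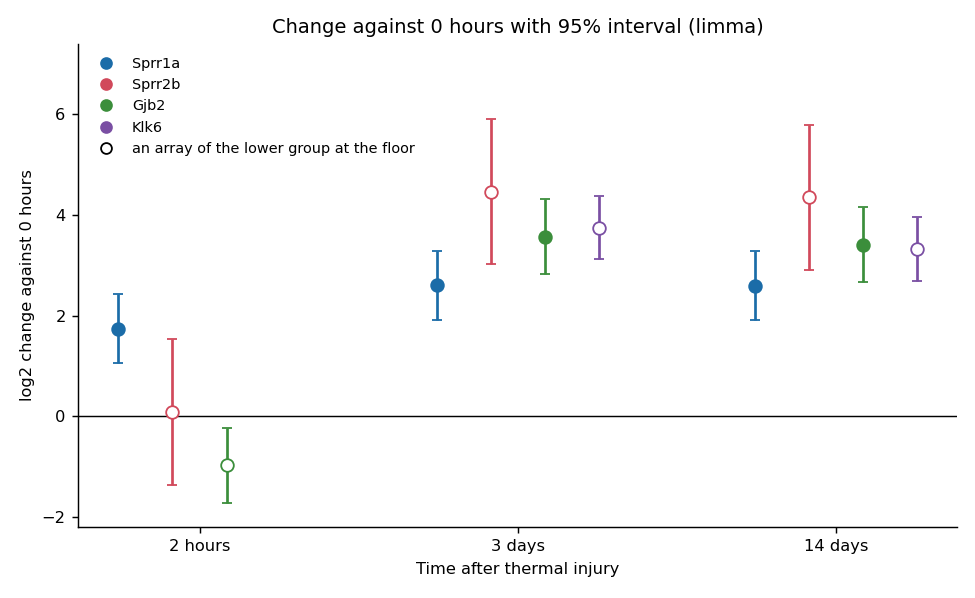
log2 change against 0 hours of the 4 genes at 2 hours, 3 days and 14 days, with 95% intervals of the limma fit. Hollow points have an array of the lower group at the floor, and Klk6 at 2 hours is left out because both groups are at the floor. The intervals at 3 days and 14 days lie above 0 for every gene, and at 2 hours only that of Sprr1a does.

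The gap between Sprr1a and Gjb2 was wider on every 2 hours array than on any 0 hours array. The log2 intensity of Sprr1a minus that of Gjb2 was 4.58 ± 0.22 at 2 hours and 1.87 ± 0.16 at 0 hours (SD, n = 3 each), a difference of 2.72 with no overlap. The exact permutation p was 0.1, the smallest that 3 against 3 arrays allow (0.129 after adjustment over 9 such comparisons). Against Sprr2b the same difference of differences at 2 hours was 1.67 and the groups overlapped (exact p = 0.2). At 3 days Sprr1a had gained less than Sprr2b (-1.87) and Gjb2 (-0.97), and at 14 days likewise (-1.75 and -0.81), each without overlap at exact p = 0.1 (0.129 adjusted), with arrays under the floor set to it. Klk6 is left out here because it was under the floor on every 0 hours array. These are unequal changes within an array and do not show that any gene was constant.

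Replicates at 14 days followed 1 order for all 4 genes, with replicate 1 highest and replicate 2 lowest. The largest spread there was 3.03-fold for Sprr2b, against 1.23-fold at 3 days, and the smallest was 1.95-fold for Sprr1a. Sums of neutrophil markers were in the same order, 10627.6 in replicate 1, 2701.1 in replicate 3 and 2391.4 in replicate 2. Sums of basal keratinocyte markers were as well, 52628.2 in replicate 1, 50862.6 in replicate 3 and 41434.2 in replicate 2, but their mean log2 intensity was 11.15, 11.16 and 10.79 in those replicates, with replicate 3 highest. Suprabasal keratinocyte markers were lowest in replicate 1, with sums of 114172.6 there, 116966.9 in replicate 2 and 151801.3 in replicate 3. Hair follicle markers were also in another order, with 23499.2 in replicate 1, 37500.1 in replicate 2 and 63356.8 in replicate 3. The part of any of these cell types in the spread was not tested.

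The basal keratinocyte sum itself lay between 29542.6 and 44663.4 on the 0 hours arrays, between 46330.8 and 52425.9 on those of 2 hours, between 41906.3 and 43084.5 on those of 3 days and between 41434.2 and 52628.2 on those of 14 days, with no marker at the floor on all 3 arrays of a time. Taken relative to the mean of these markers on each array, an alternative added after the data were seen, Sprr1a was 1.29 higher at 2 hours than at 0 hours on the log2 scale (limma adjusted p = 0.0147) and the calls at 3 days and 14 days held for all 4 genes. The changes at 3 days were 2.21 for Sprr1a, 4.08 for Sprr2b, 3.19 for Gjb2 and at least 3.36 for Klk6. On that scale Gjb2 fell at 2 hours (-1.43, limma adjusted p = 0.014). No probe set named Krt5, Krt14 or Krt15 alone, so these basal keratins are not in the mean. Of the 11 markers in it, 1 rose at 2 hours, 3 at 3 days and 3 at 14 days against 0 hours, and none fell (limma). All tested genes rose at shares of 4%, 8.89% and 6.90%. At an unadjusted limma p under 0.05, 5, 5 and 4 of the 11 markers were higher at these times and 0, 0 and 1 lower. Their median changes were 0.47, 0.53 and 0.27, against 0.05, 0.02 and 0.05 for all genes. The scaling is relative to these transcripts and does not measure how many basal keratinocytes were present. The sum of 25 of 29 macrophage markers was 55344.8 to 86714.1 at 3 days, against 20486.1 to 24501.8 at 0 hours, and it was 16052 to 30481.3 at 2 hours and 31334.3 to 34082.5 at 14 days. The sum of 8 of 19 neutrophil markers was 7664.1 to 28281.1 at 3 days, against 937.6 to 1701 at 0 hours, and it was 1028.1 to 3990.6 at 2 hours and 2391.4 to 10627.6 at 14 days, with Csf3r at the floor at all times but 3 days. The sum of 19 of 26 hair follicle markers was 23499.2 to 63356.8 at 14 days, against 6512.6 to 14808.1 at 0 hours, and it was 6461.9 to 6570.5 at 2 hours and 5020.4 to 5781.7 at 3 days, with Krt71 and Krt27 at the floor at both. The part of these cell types in the 4 genes' changes was not tested.

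**Figure D3:**
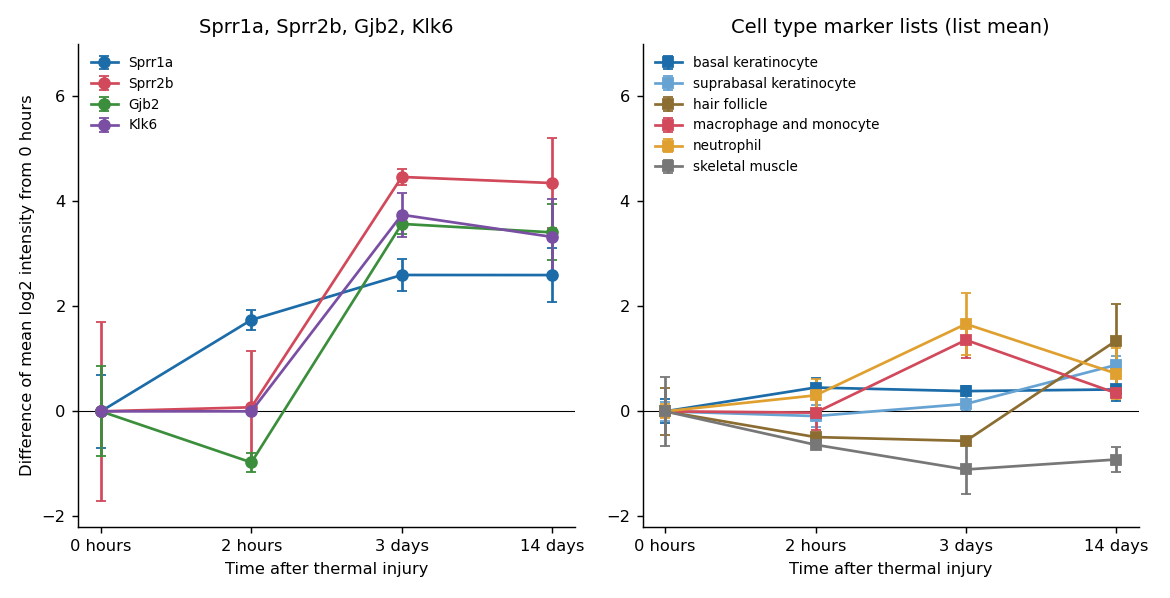
Difference of mean log2 intensity from 0 hours for the 4 genes (left) and for 6 lists of cell type markers (right), by time after injury. Points are means of 3 arrays and error bars the SD over those arrays. Macrophage and neutrophil lists peak at 3 days, hair follicle markers at 14 days, and the basal keratinocyte list moves less than any of the 4 genes does at 3 days.

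Sprr genes besides the members were also higher 3 days after injury. Of 8 other Sprr genes with a probe set of their own, 7 were tested, and all 7 rose at 3 days against 0 hours, against 8.89% of all tested genes. The changes were 1.36 to 2.31 on the log2 scale (median 2.03, against 0.02 for all genes). Sprr2d and Sprr2h had no 0 hours or 2 hours array over the pooled median of 475.55 and were tested only through later arrays. The count of 7 of 7 therefore depends in part on the filter. The probe sets of Sprr2e, Sprr2g, Sprr2i and Sprr2j-ps carry the family mark _f_at, as that of Sprr2b does, so the 7 cannot be taken as separate measurements of 7 genes. The call of Sprr2d is lost without 3 days replicate 3 (1.60, limma adjusted p = 0.0764). With no intensity filter the limma adjusted p was 0.089 for Sprr2d, 0.0741 for Sprr2h and 0.0562 for Sprr2j-ps. At 2 hours none of the 7 passed (limma), with changes of -0.55 to -0.02 and 1 of them lower at an unadjusted p under 0.05, against 1.74 for Sprr1a. Sprr2i was at 6050.3, 5661.8 and 7361.3 at 3 days, against 1029.9, 1443.6 and 1397.8 at 0 hours, a log2 change of 2.31 ± 0.30 (limma adjusted p = 0.000383). Sprr2e was at 9186.4, 8685.6 and 11613.1 at 3 days, against 1879.4, 2563.2 and 2826.3 at 0 hours, and rose by 2.03 ± 0.30. Sprr2g and Sprr2j-ps are annotated as transcribed pseudogenes, and their probe sets rose by 1.36 ± 0.25 and 2.19 ± 0.45. At 14 days 5 of the 7 rose against 0 hours, against 6.90% of all tested genes. Sprr2d (1.14, limma adjusted p = 0.133) and Sprr2h (1.42, limma adjusted p = 0.0725) did not pass. Both passed without 14 days replicate 2 (1.69 and 1.92), and without 14 days replicate 1 the changes were 0.40 (limma adjusted p = 0.53) and 0.67 (limma adjusted p = 0.263). The call of Sprr2g at 14 days (1.20) was lost in a fit of those 2 times alone (limma adjusted p = 0.0588). Sprr2f failed the intensity filter.

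Sprr1b, the other Sprr1 gene, gave changes of unequal size from its 2 probe sets. The brighter one, used in the test, was at 32763.2, 33070.4 and 38757.2 at 3 days, against 9358.3, 9820.8 and 8961.8 at 0 hours, a change of 1.89 ± 0.33. The dimmer one carries the family mark _f_at, so its signal may include transcripts of other genes. It was at 5114.9, 4970.7 and 7662.6 at 3 days, against 68.2, 111.7 and 259.3 at 0 hours. The change was 4.62 ± 0.42, with the 2 arrays at 0 hours under the floor set to it. Neither passed at 2 hours, with changes of -0.02 and -0.07. Sprr1b at 14 days was 1.497 ± 0.33 above 0 hours, a call lost without 14 days replicate 1 (1.05, limma adjusted p = 0.0541), with no intensity filter (limma adjusted p = 0.0674) and in a fit of those 2 times alone (limma adjusted p = 0.0546).

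**Figure D4:**
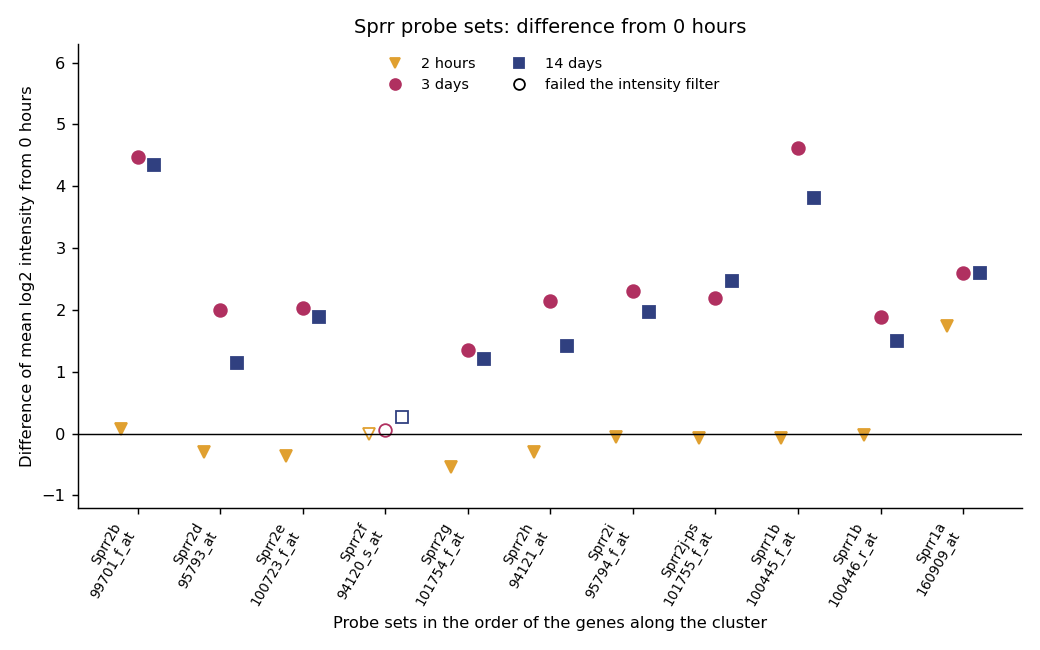
Difference of mean log2 intensity from 0 hours at 2 hours, 3 days and 14 days for 11 Sprr probe sets in the order of their genes along the cluster. Filled points passed the intensity filter and hollow ones did not. Sprr1a, at the right, is the 1 gene well above 0 at 2 hours, and every filled point at 3 days lies above 1.

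Of 3 other connexin genes with a probe set 2 were tested, and neither rose at 3 days (limma), with 1 of them lower at an unadjusted p under 0.05. The tested probe set of Gja1, the most widely expressed connexin, also carries the family mark _f_at, and its other probe set failed the intensity filter. Gja1 was at 5102.8, 4128.8 and 5993.9 at 3 days, against 3207.7, 4984.9 and 3097 at 0 hours. It did not pass (0.45 ± 0.22, limma adjusted p = 0.184), though it did without 0 hours replicate 2 (0.67, limma adjusted p = 0.0437). At 14 days it passed at 0.81 ± 0.22 (limma adjusted p = 0.031), but not without 0 hours replicate 1 or 3 or any 14 days replicate (limma adjusted p up to 0.105). Gjb5, another epidermal connexin, was at 703.9, 987.7 and 481.3 at 3 days, against 1207.4, 1288.3 and 821.5 at 0 hours, and did not pass (-0.64 ± 0.27, limma adjusted p = 0.125). Gjb6, which lies near Gjb2 on chromosome 14 at 57123301 to 57133611, was dim, and its brighter probe set failed the filter: its values were 14.8, 41.5 and 68.9 at 0 hours, 19.4, 11.3 and 26.0 at 2 hours, 352.0, 327.8 and 388.4 at 3 days, and 425.0, 186.9 and 271.7 at 14 days. Those values lay under the floor on all 6 early arrays and above it on 5 of the 6 later ones.

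Klk8, a secreted epidermal protease that lies near Klk6 on chromosome 7 at 43797532 to 43803826, was detected at all times and rose later. It was at 1925.2, 1464.8 and 2050.3 at 14 days, against 493.6, 748.2 and 734.0 at 0 hours, a rise of 1.47 ± 0.24 (limma adjusted p = 0.0019). At 3 days Klk8 was 0.60 ± 0.24 above 0 hours and did not pass (limma adjusted p = 0.1). Of 7 tested genes of the kallikrein and epidermal protease inhibitor list, 1 rose at 2 hours, 2 at 3 days and 4 at 14 days, and none fell (limma; 0 were lower at an unadjusted p under 0.05). Without Klk6 the counts were 1, 1 and 3 of 6, against 4%, 8.89% and 6.90% of all tested genes. Prss8 reached the intensity filter only with its later arrays. The inhibitor Serpinb2 rose by 1.17 ± 0.29 at 2 hours and 1.03 ± 0.29 at 3 days, but both calls were lost without 0 hours replicate 1 or 3, the first also without any 2 hours replicate and the second without 3 days replicate 3 (limma adjusted p up to 0.149). Prss8, a membrane-anchored protease, rose by 0.63 ± 0.18 at 14 days and Serpinb5 by 0.90 ± 0.27, but the first call was lost without 0 hours replicate 1 or 2 or any 14 days replicate, and the second without 0 hours replicate 1 or 3 or any 14 days replicate (limma adjusted p up to 0.177).

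**Figure D5:**
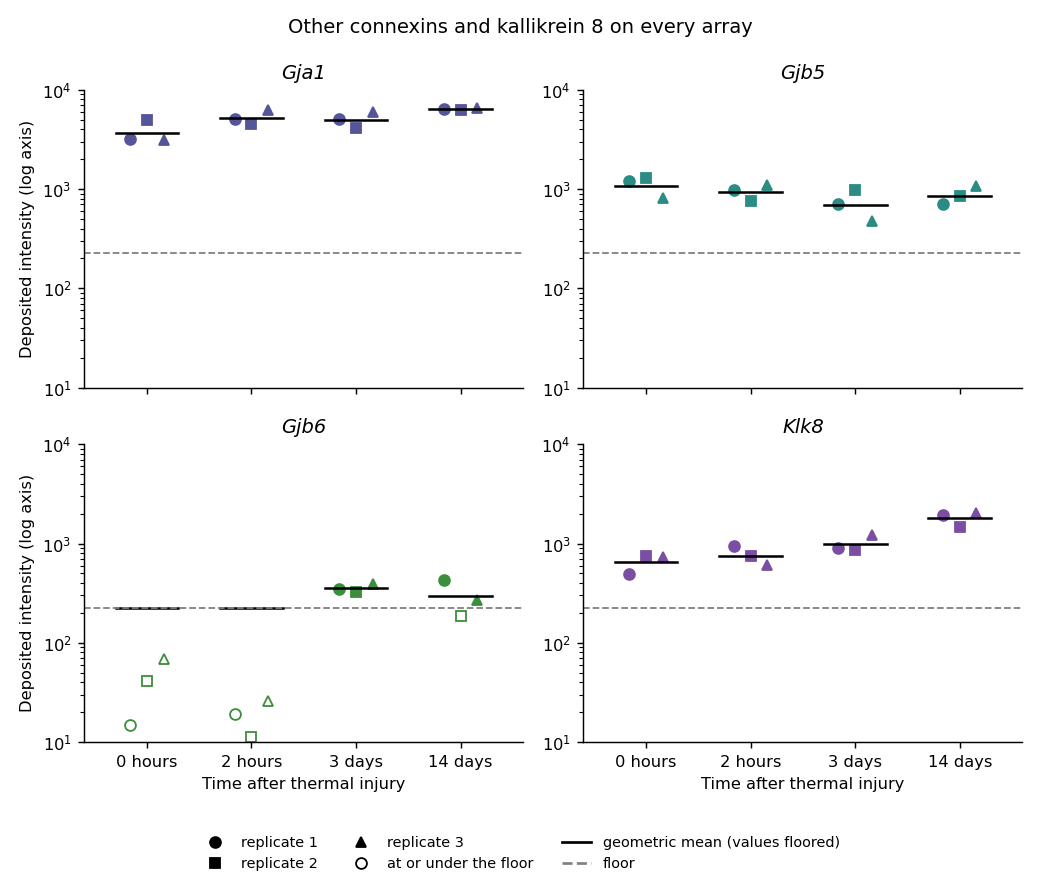
Deposited intensity (log axis) of the connexins Gja1, Gjb5 and Gjb6 and of Klk8 on all 12 arrays, drawn as in the plot of the 4 genes, with the floor dashed. Gjb6 lies under the floor on all early arrays, and Klk8 is highest at 14 days.

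Among 17 tested genes of the cornified envelope list, 3 rose at 2 hours, 11 at 3 days and 9 at 14 days against 0 hours, and none fell (limma; 0 were lower at an unadjusted p under 0.05). The median change was 0.00 at 2 hours, 1.83 at 3 days and 1.497 at 14 days, against 0.05, 0.02 and 0.05 for all genes. Without the members the counts were 2, 9 and 7 of 15, against 4%, 8.89% and 6.90% of all tested genes, and the medians -0.02, 0.87 and 1.42. Casp14, Rptn, Sprr2d and Sprr2h reached the intensity filter only with later arrays, so these counts depend in part on the filter. Most genes called at 3 days were Sprr genes, whose probe sets cannot be taken as separate measurements. Outside that family only Slpi, Casp14 and Cstb rose at 3 days. At 2 hours the others were S100a10 (0.85 ± 0.21) and Anxa1 (0.80 ± 0.20), genes of many cells. Their calls were both lost without replicate 1 or 3 of either time (limma adjusted p up to 0.162). Casp14, a protease that acts on filaggrin, was 2.80 ± 0.22 higher at 14 days than at 0 hours, Flg, the filaggrin gene, was 2.82 ± 0.24 higher, and Rptn, at the floor at 0 hours, was at least 2.25 ± 0.32 higher. Casp14 and Flg were also higher at 14 days than at 3 days, by 1.93 ± 0.22 (limma adjusted p = 0.000189) and 2.17 ± 0.24 (limma adjusted p = 0.000169), a comparison in which none of the 4 genes passed. At 3 days against 0 hours Casp14 was 0.87 ± 0.22 higher, a call lost without 0 hours replicate 1 or 3 days replicate 3, and Flg was 0.66 ± 0.24 higher without passing (limma adjusted p = 0.0815).

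In the wound keratinocyte list 3 of 19 tested genes rose at 2 hours, 15 at 3 days and 11 at 14 days, with medians of 0.21, 2.03 and 1.57. Without the members 2, 11 and 7 of 15 rose, against 4%, 8.89% and 6.90% of all tested genes. The 11 at 3 days include Sprr1b, Sprr2d and Sprr2e, and also S100a8 and S100a9, which are on the neutrophil list too. Sprr2d, Krt16, S100a8 and S100a9 reached the intensity filter only with their later arrays, so these counts depend in part on the filter. Krt6a, Krt6b and Krt16 are keratins of activated keratinocytes. Krt6a rose already at 2 hours (1.67 ± 0.36, limma adjusted p = 0.0159), a call lost without 0 hours replicate 1, 2 hours replicate 1 or 2 hours replicate 3 and with its other probe set (1.31, limma adjusted p = 0.158), and by 2.72 ± 0.36 at 3 days. Krt16, with 2 arrays at 0 hours set to the floor, rose by 5.07 ± 0.54 and Krt6b by 4.85 ± 0.56 at 3 days, against 0 hours, and by 4.77 and 4.03 at 14 days. Without 14 days replicate 1 the values at 14 days were 3.99 for Krt16 and 3.15 for Krt6b, and without 14 days replicate 2 they were 5.36 and 4.75.

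The genes with the most similar course over the 12 arrays were read from Pearson's r on the log2 scale, a description, since all genes of an array share its time, RNA quality and tissue content. The closest to Sprr1a were Plbd1 (r = 0.965), Cdc42se1 (0.953), Krt6a (0.944), Gltp (0.934) and Sfpq (0.913). For Sprr2b they were Ppp1r14b (0.950), Sprr2i (0.947), Krt17 (0.947), Sprr2e (0.947) and Gjb2 (0.945). For Gjb2 they were Sprr2g (0.980), Sprr2e (0.978), Sprr2i (0.964), Klk6 (0.964) and Krt6b (0.955), and for Klk6 they were Sprr2i (0.978), Krt6b (0.977), Krt16 (0.970), Sprr2e (0.967) and Gjb2 (0.964). Among the members r was 0.807 between Sprr1a and Sprr2b, 0.789 between Sprr1a and Klk6 and 0.710 between Sprr1a and Gjb2. It was 0.945 between Sprr2b and Gjb2, 0.929 between Sprr2b and Klk6 and 0.964 between Gjb2 and Klk6. The 3 lower values are those of Sprr1a, the gene already high on the 2 hours arrays.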

How the data were processed

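The deposited table holds 1 linear signal intensity per probe set and array, as deposited by the authors and without detection calls. How these intensity values were scaled, with which software, and by what rule probe sets were kept is not given in the sources used here. No further scaling was applied. Of 7275 probe sets 27 were controls, and 6551 named exactly 1 gene symbol in the platform annotation, 251 several and 446 none.

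The floor was the 25th percentile of all values pooled (225.375); lower intensities were raised to it before taking log2. A probe set entered the tests if 3 or more arrays exceeded the pooled median (475.55), and the brightest such probe set stood for its gene, giving 3477 genes. One limma 3.58.1 model (R 4.3.3) covered the 12 arrays, with time point as the factor, 8 residual and 6.64 prior degrees of freedom, and a Benjamini-Hochberg adjusted p under 0.05 made a call. Folds are ratios of geometric means, and those against a lower group with any array at the floor are lower bounds. The words "at least" are written only where all 3 arrays of that group are at the floor. The procedure was tested on simulated data. Figures and tables were made with Python 3.11.15, pandas 2.3.3, scipy 1.17.1 and matplotlib 3.10.9, and promoter windows came from RefSeq GRCm38.p6. The number of arrays limits the precision, and with 3 arrays a side no exact test reaches a p under 0.1.

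The members and gene lists were chosen with earlier results of these data known. Named genes are the members, the 5 genes most correlated with each, genes of the Sprr, connexin and kallikrein families, and per list up to 4 called genes with the smallest p against 0 hours. The comparison of Casp14 and Flg between 14 days and 3 days was added with its values in view. Slpi, Cstb, S100a8 and S100a9 were named later to show what the list counts hold. The alternatives changed the scaling (quantile or median), the floor (10th or 40th percentile), the filter (none or the 75th percentile), the probe set of a gene (most variable, or all), the variance model (trended and robust), the arrays fitted (1 left out, or only the 2 times compared) and the design (a replicate block). Scaling to basal keratinocyte markers was added after the data were seen. Replicate numbers were not treated as pairs: deviations from the group means correlated at over 0.1 in 2 of 18 pairs of arrays that share a number (median -0.066).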

Additional observations from a re-analysis of the deposited data

How the results depend on the processing

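The 4 genes gave 24 results over 6 comparisons and 432 alternative values, of which 417 kept the direction and the side of the threshold. Some of these could not differ. Each gene has 1 probe set, so the settings with the most variable or all probe sets left its change as it was. Klk6 at 2 hours was 0 in the main fit and could not be counted as reversed. All calls of Sprr2b, Gjb2 and Klk6 at 3 days and 14 days against 0 hours and 2 hours, and of Sprr1a at 2 hours, 3 days and 14 days against 0 hours, held under every alternative run. Where only the 2 time points compared were fitted, Sprr1a also passed at 3 days (0.86) and 14 days (0.85) against 2 hours. Gjb2 at 2 hours ran from -1.46 to -0.67 with 1 array left out and was -1.43 relative to basal keratinocyte markers, passing in the first case without 0 hours replicate 1 and in the second. Sprr2b at 2 hours turned to -0.15 with the floor at the 40th percentile and -0.38 relative to basal keratinocyte markers, and ran from -0.86 to 0.80 with 1 array left out. Between 14 days and 3 days Sprr1a turned to 0.033 under quantile normalization and ran from -0.19 to 0.29 with 1 array left out, Gjb2 from -0.43 to 0.10 and Sprr2b from -0.61 to 0.19. With the replicate block, which the numbers do not justify, no call of the 4 genes changed: Sprr1a at 2 hours was 1.74 (limma adjusted p = 0.0121). It moved no count of called genes by over 1.5 times, and the calls of Anxa1, Prss8 and Serpinb5 were lost with it.

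The number of genes called depended more on the setting, and the cause was not tested. Against the reported 197, 462, 353, 327, 427 and 118 (2 hours, 3 days and 14 days minus 0 hours, 3 days and 14 days minus 2 hours, 14 days minus 3 days), the counts with 1 array left out were 72 to 316, 178 to 558, 119 to 486, 112 to 409, 180 to 351 and 59 to 110. The lowest came without 2 hours replicate 3, 3 days replicate 3, 14 days replicate 1, 3 days replicate 3, 14 days replicate 1 and 14 days replicate 2, and the highest against 0 hours came without 0 hours replicate 2. Fitting only the 2 time points gave 63, 216 and 153 against 0 hours and 675 for 14 days minus 2 hours. Without a filter 294 genes were called for 3 days minus 0 hours, 174 and 268 for 3 days and 14 days minus 2 hours, and 63 for 14 days minus 3 days. Relative to basal keratinocyte markers the counts were 505, 707 and 590 against 0 hours and 283 for 14 days minus 2 hours. That scaling moved the median of all genes by construction to -0.41, -0.36 and -0.36 against 0 hours, and the share of higher genes among those called to 8.12%, 19% and 13.9%, against 70.6%, 66.9% and 68%. For 3 days and 14 days minus 2 hours that share was 84.9% and 68.6%, against 64.8% and 55.7%. The Klk6 changes are bounds whose size and standard error depend on the floor, and signals near background limit Gjb2 at 2 hours.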

Other observations

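Besides the probe sets that name a single Sprr gene, 2 probe sets name 3 Sprr2a genes each and were assigned to none. The middle of 3 arrays of the first was 1368.5 on the 0 hours arrays, 565.0 on those of 2 hours, 29768.4 on those of 3 days and 24312.7 on those of 14 days. That of the second was 1552.4, 614.8, 24239.1 and 18986.8, in the same order of times. As for Sprr2b, the spread at 0 hours was wide, with 117.1 to 5170.3 in the first and 550.5 to 2750.2 in the second. The ranges of the 3 days and 14 days arrays lay above those of the 0 hours and 2 hours arrays in both.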
